A study of Homo sapiens with 18 samples.

Results

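The levels of 10 regulators of pre-mRNA splicing were followed through clones of RPE1, a human cell line derived from the pigmented layer of the retina and immortalised with telomerase: the muscleblind genes MBNL1, MBNL2 and MBNL3, the epithelial splicing regulators ESRP1 and ESRP2, and RBFOX2, QKI, CELF1, CELF2 and PTBP1. They are the 10 genes, of 57773 in the deposited table, whose Ensembl identifiers belong to these symbols. The set was drawn up around 2 of them with results in view, since MBNL3 was higher and ESRP1 lower in every tetraploid clone. The change of a member between a tetraploid and its diploid clone is therefore a description, with no p of its own. Whether that change differed in size between the pairs was tested for the members other than those 2.

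The series compared polyadenylated RNA of 6 clones in 18 libraries. All 6 clones descend from RPE1 cells that spent 72 h in 2.5 uM ZM447439, an Aurora kinase inhibitor under which cells can leave mitosis undivided and double their genome, followed by weeks of outgrowth and single-cell cloning. The clones 4N-1, 4N-2 and 4N-3 were tetraploid, and 2N-1, 2N-2 and 2N-3 were diploid survivors picked from the plates of the matching tetraploid clone, so the diploid clones had met the drug too. Clones 4N-2 and 2N-2 had also been labelled with the DNA dye Hoechst before sub-cloning. Each clone gave 3 biological replicates (libraries A, B and C), and a difference within a pair is a difference between 1 clone and 1 other clone. Levels in a bulk library cannot tell fewer expressing cells from less RNA per cell.

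Muscleblind proteins are zinc-finger proteins that bind YGCY motifs in RNA and promote adult patterns of splicing, and their capture by expanded CUG repeats underlies myotonic dystrophy. CELF proteins act against them on many of the same exons. ESRP1 and ESRP2 set the epithelial forms of transcripts such as FGFR2, CD44, CTNND1 and ENAH and are lost when epithelial cells turn mesenchymal, while RBFOX2 and QKI favour many of the mesenchymal forms. PTBP1, also called hnRNP I, mostly represses exons and holds back neuronal forms.

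Libraries held 37.2 to 54.3 M reads in genes (M, mega), recovered from the deposited values, and levels below are these reads per M of the library size that the values imply. Library A of 2N-3 stood apart. Against B and C of its clone its median log2 difference ran from 0.49 in the genes of shortest exon length (3554 genes) through 0.12 and -0.16 to -0.44 in those of longest exon length (3553 genes). It was also low in the 6 abundant members, by 0.72 for QKI, 0.68 for MBNL1, 0.63 for MBNL2, 0.58 for RBFOX2, 0.30 for CELF1 and 0.19 for PTBP1, which is not their order of exon length (MBNL2, the shortest, has 4908 bases and CELF1 10452). Library C of 4N-3 showed no such slope (medians of -0.05 to 0.00) but stood 0.54 lower than A and B in PTBP1. The part of RNA quality in these values was not tested. Of the defining markers of the retinal pigment epithelium, RPE65 was at or below 0.480 reads per M in every clone mean and TYR, TTR, DCT and RLBP1 at or below 0.154, whereas MITF (18.3 to 22.3) and OTX2 (26.9 to 45.0) were present. Markers of other cell types were near 0: PTPRC, CDH5, ALB, MYOD1, DES and SOX10 together reached 0.157 to 0.506 reads per M in a library. The neural marker TUBB3 was the exception, with clone means of 94.5 to 179, and was lower in pair 1 (-0.70, limma adjusted p = 0.00192). Of 13 pigment epithelium markers 9 were tested: RPE65, TYRP1, KRT8 and KRT18 were higher in pair 1 (median of the 9, 0.30), and in pair 2 BEST1, KRT8 and KRT18 were higher and RPE65, TYRP1, PMEL and OTX2 lower (-0.17). In pair 3, 0 passed in limma or limma-voom, with 1 at an unadjusted p below 0.05 in each (median -0.16). The part of these shifts in the results below was not tested.

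MBNL3, the muscleblind most often linked to the placenta and to undifferentiated muscle cells, was all but silent in the diploid clones and present in the tetraploid clones. Its gene (ENSG00000076770) lies on the minus strand of chromosome X, chrX:132369317-132489968 in GRCh38. A pair of RefSeq start sites lies at its 5′ end, and the 250 bases before each are shown because of the 10 members this one differed most between diploid and tetraploid clones. Further RefSeq starts lie within the gene, at chrX:132440259 and chrX:132413608, and are not shown. The deposited values do not tell which start was used. Capitals mark CG dinucleotides. The first window is chrX:132490036-132490285 and the second chrX:132489039-132489288 (GRCh38.p14, minus strand), and neither holds an annotated exon base of MBNL3.
MBNL3 first start: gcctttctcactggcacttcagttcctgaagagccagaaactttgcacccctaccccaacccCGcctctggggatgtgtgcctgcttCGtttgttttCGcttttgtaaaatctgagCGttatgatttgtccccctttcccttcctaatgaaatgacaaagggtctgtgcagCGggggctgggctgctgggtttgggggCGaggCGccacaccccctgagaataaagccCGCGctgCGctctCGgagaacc
MBNL3 second start: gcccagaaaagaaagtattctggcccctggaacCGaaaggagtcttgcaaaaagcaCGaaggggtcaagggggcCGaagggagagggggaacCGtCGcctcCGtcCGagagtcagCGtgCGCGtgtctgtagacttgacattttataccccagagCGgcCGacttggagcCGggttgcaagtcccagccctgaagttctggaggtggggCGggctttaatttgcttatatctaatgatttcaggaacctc
The windows hold 11 and 14 CG, against a median of 11 in the 35116 RefSeq promoter windows of this length; 50.3% and 44.8% of those hold at least as many. On both strands, a search was made for 4 motifs: the TATA motif TATAAA, the CCAAT box, the GC box with the letters GGGCGG and the E-box CAGGTG. The first window holds none of them. The second holds 1 TATA motif, found in 10.7% of all windows, and 1 GC box, found in 42.6%. The CCAAT box was found in 32.0% and the E-box in 17.5% of all windows.

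In the diploid clones MBNL3 had 3, 3 and 0 reads in the libraries of 2N-1 (in the order A, B, C, as below), 1, 3 and 1 in 2N-2, and 0, 1 and 1 in 2N-3. In the tetraploid clones it had 211, 277 and 242 reads in 4N-1, 145, 145 and 175 in 4N-2, and 336, 389 and 308 in 4N-3. No tetraploid library came near a diploid one. The clone means were 0.0469 ± 0.0407 and 5.40 ± 0.404 reads per M in 2N-1 and 4N-1 (SD, n = 3 here and below), 0.0323 ± 0.0195 and 3.75 ± 0.156 in pair 2, and 0.0154 ± 0.0133 and 8.34 ± 0.961 in pair 3. Summed reads put the tetraploid clone 110 times above the diploid clone in pair 1 (95% exact binomial interval 50.5 to 302) and 112 times in pair 2 (47.8 to 348). In pair 3 the ratio was 511 over a denominator of only 2 reads (interval 141 to 4223). These intervals cover counting error only, and they are no test of a difference for which MBNL3 was chosen. On log2(reads per M + 0.25), the scale of the fit, the changes were 4.26, 3.82 and 5.01 (SE 0.13), and the pseudocount of 0.25 understates a change from so low a level. In order of increase MBNL3 held place 5 in pair 1, place 47 in pair 2 and place 1 in pair 3 among the 23381 tested genes.

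**Figure D1:**
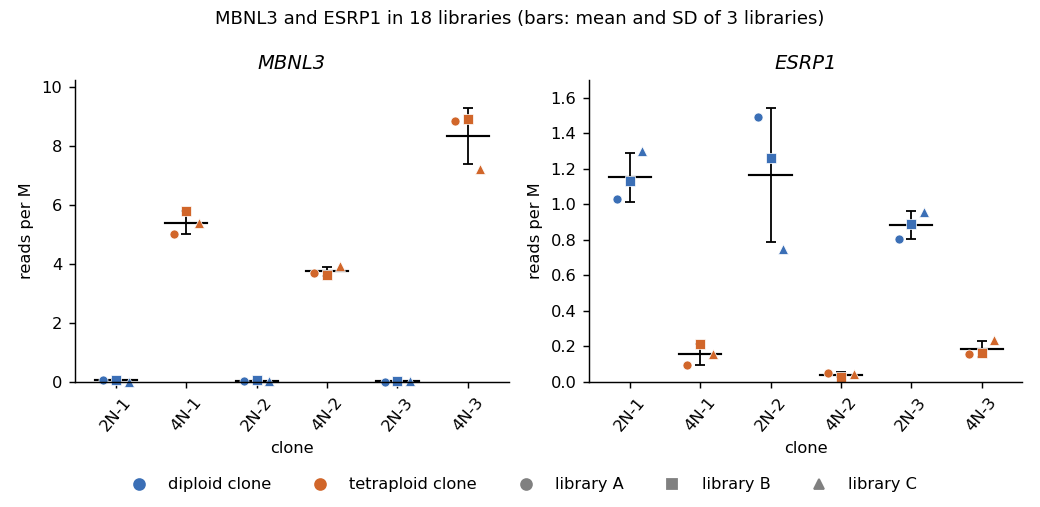
Reads per M of MBNL3 (left) and ESRP1 (right) in the 18 libraries, by clone; points are libraries A, B and C, horizontal lines the mean and error bars the SD of 3. MBNL3 lay between 3.75 and 8.34 reads per M in the tetraploid clone means and below 0.05 in the diploid ones, and ESRP1 was lower in the tetraploid clone of each pair.

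Among the tetraploid clones, a comparison that did not enter the choice of genes, the level of MBNL3 was graded. All 3 libraries of 4N-3 lay above those of 4N-1, and those of 4N-1 above those of 4N-2. By limma on all tested genes, 4N-2 was lower than 4N-1 by 0.50 on the log2 scale (SE 0.13, adjusted p = 0.0049), 4N-3 was 0.60 higher than 4N-1 (adjusted p = 0.0053), and 4N-3 was 1.10 higher than 4N-2 (adjusted p = 4.1e-06). At 0 to 3 reads a library, differences between the diploid clones could not be resolved.

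MBNL3 shares its locus with RAP2C-AS1, an antisense transcript on the other strand, and whether the counting used the strand is not stated. RAP2C-AS1 went from 1.63 to 2.71 reads per M in pair 1 (log2 change 0.68, limma adjusted p = 0.0132), and was at 2.00 and 1.44 in pair 2 (-0.42, adjusted p = 0.0749) and in pair 3 the means were 1.64 and 1.69 (0.06, adjusted p = 0.868). It passed in pair 1 alone of the 3 pairs, while MBNL3 was higher in each. A pair of neighbouring genes, looked up after their values were known, were RAP2C, a small GTPase, at 30.4 to 35.1 reads per M in the 6 clones and STK26, a kinase, at 20.9 to 30.9. The largest log2 change of these 2 in a pair was 0.49 (STK26 in pair 3, limma adjusted p = 0.0309). On the other side of MBNL3, the nearer gene looked up was AL009174.1, a processed pseudogene from chrX:133670971. It passed in no pair (-0.01, 0.01 and -0.31). Farther out, from chrX:134373253, PHF6, a zinc-finger protein gene, went from 52.3 to 77.2 reads per M in pair 2 (0.56, adjusted p = 0.0105). PHF6 did not pass in pairs 1 and 3 (-0.14 and 0.30).

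MBNL1 and MBNL2, the muscleblinds of most adult tissues, were abundant in every clone. MBNL1 (ENSG00000152601, chr3:152243828-152465780) had 235, 251 and 260 reads per M in 2N-1 against 228, 224 and 240 in 4N-1, and 232, 219 and 236 in 2N-2 against 170, 153 and 163 in 4N-2. In pair 3 it had 148, 235 and 241 in 2N-3 against 246, 244 and 217 in 4N-3. Only in pair 2 did the libraries not overlap, with 4N-2 the lowest clone of the 6 by mean (162.3 ± 8.57). The low value of 2N-3 was library A, which stands apart as described. The log2 changes were -0.11, -0.50 and 0.21 (SE 0.13), and without library A of 2N-3 the last was -0.01.

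MBNL2 (ENSG00000139793, chr13:97221434-97394120) had 67.1, 66.7 and 68.3 reads per M in 2N-1 against 80.1, 79.8 and 85.9 in 4N-1, all higher. It had 69.5, 65.4 and 67.2 in 2N-2 against 63.3, 56.3 and 48.6 in 4N-2, all lower. In pair 3 the clones overlapped, at 40.4, 63.9 and 60.9 against 62.0, 58.2 and 70.5. The log2 changes were 0.28, -0.27 and 0.23 (SE 0.13), and the last was 0.02 without library A of 2N-3.

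Per kilobase of annotated exon, a scale that allows for gene length, MBNL3 stayed the minor muscleblind. The deposited values do not tell whether all reads lay in exons or which isoforms were present. This limit holds for every value per kilobase here and below. Its share of the summed MBNL1, MBNL2 and MBNL3 level was 0.0101%, 0.00733% and 0.00346% in the 3 diploid clones, and 1.10% ± 0.0991, 1.10% ± 0.108 and 1.83% ± 0.191 in 4N-1, 4N-2 and 4N-3. The sum itself was 38.6 ± 1.36 reads per M and kb in 2N-1 and 40.2 ± 1.55 in 4N-1, 36.7 ± 1.25 and 28.0 ± 1.99 in pair 2, and 32.0 ± 7.80 and 37.2 ± 0.706 in pair 3. The sum was thus lowest in 4N-2, where MBNL1 and MBNL2 were both low. MBNL2 made up 35.6%, 37.5% and 35.1% of the sum in the diploid clones and 41.5%, 40.7% and 34.8% in the tetraploid ones.

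ESRP1 was low everywhere and lower still in the tetraploid clones. Its gene (ENSG00000104413) lies on the plus strand at chr8:94641074-94707466. It had 45, 47 and 48 reads in 2N-1 against 4, 10 and 7 in 4N-1, 74, 69 and 34 in 2N-2 against 2, 1 and 2 in 4N-2, and 29, 38 and 42 in 2N-3 against 6, 7 and 10 in 4N-3. The lowest diploid library (29 reads) stood above the highest tetraploid one (10 reads). Clone means were 1.15 ± 0.137 and 0.154 ± 0.0575 reads per M in pair 1, 1.17 ± 0.379 and 0.0402 ± 0.0134 in pair 2, and 0.883 ± 0.0772 and 0.185 ± 0.0435 in pair 3. The diploid clone thus exceeded the tetraploid clone 7.34 times in pair 1 (95% exact binomial interval 4.62 to 12.2), 29.3 times in pair 2 (12.3 to 91.3) and 4.79 times in pair 3 (3.04 to 7.88). As for MBNL3, the intervals cover counting error only, not the spread between libraries. ESRP1 was chosen for this difference, so they are no test of it. The log2 changes were -1.80, -2.25 and -1.39 (SE 0.18), which put ESRP1 at places 41, 135 and 115 among the tested genes in order of decrease.

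Between tetraploid clones ESRP1 was too low for a firm comparison. It met the minimum of reads through the diploid libraries, and only 2 of the 9 tetraploid libraries had 10 reads. With 5 reads in all, 4N-2 was 0.47 lower on the log2 scale than 4N-1 with 21 reads (limma adjusted p = 0.0365) and 4N-3 was 0.58 higher than 4N-2 (adjusted p = 0.0154). Over the alternatives the first ran from -1.64 (limma-voom) to -0.15 (pseudocount of 1, adjusted p = 0.217) and the second from 0.19 (pseudocount of 1, 0.145) to 1.92 (limma-voom). The first was also lost with the replicate letter as a block (0.0518), without the minimum of reads (0.0718), and without library B or C of 4N-1 or any 1 library of 4N-2 (0.0598 to 0.148). The second was lost without library B of 4N-2 (0.0546) or library C of 4N-3 (0.0622). No difference between diploid clones was detectable at this depth (adjusted p 0.326 to 0.994).

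ESRP2 (ENSG00000103067, chr16:68229111-68238102), the partner of ESRP1, was lower in level than ESRP1 in the diploid clones. It had 16, 20 and 11 reads in 2N-1 against 12, 13 and 14 in 4N-1, 10, 14 and 14 in 2N-2 against 8, 5 and 6 in 4N-2, and 7, 13 and 17 in 2N-3 against 11, 21 and 14 in 4N-3. The clones of each pair overlapped in reads per M, and the ratios of summed reads, tetraploid over diploid, were 0.753 (0.480 to 1.18), 0.604 (0.329 to 1.07) and 1.23 (0.780 to 1.95). Each interval includes no difference, but as for ESRP1 it covers counting error only and is no test of equal levels. Among tetraploid clones ESRP2 was lower in 4N-2 than in 4N-1 by 0.42 (limma adjusted p = 0.0412) and 0.60 higher in 4N-3 than in 4N-2 (adjusted p = 0.0074). The first of these was lost, at adjusted p of 0.0504 to 0.124, on leaving out any 1 library of 4N-1, B of 2N-2, or B or C of 4N-2. It was also lost with a pseudocount of 1 (0.0664), without the minimum of reads (0.0604) and with scaling by total reads (0.055). The size of the changes moved with the scale, from -0.89 (limma-voom) to -0.16 (pseudocount of 1) for the first and from 0.24 (pseudocount of 1) to 1.2 (limma-voom) for the second, and 4N-2 had under 10 reads in each library. NFATC3, a transcription factor gene that overlaps ESRP2, was at 29.8 to 34.3 reads per M in the clone means. As the use of strand is not stated, the ESRP2 values and the ESRP shares below may hold NFATC3 reads, which was not tested.

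The make-up of the ESRP pair, per kilobase of exon, differed between the ploidies. ESRP1 was 77.5% ± 5.32 of the summed ESRP level in 2N-1 and 36.9% ± 9.61 in 4N-1, 82.6% ± 8.21 and 22.8% ± 4.52 in pair 2, and 77.8% ± 4.42 and 36.9% ± 8.76 in pair 3. ESRP1 was the larger part in every diploid library (72.8% or more) and the smaller in every tetraploid one (46.7% or less). As ESRP1 was chosen for its lower level in the tetraploid clones, this split follows from the choice and is no separate result. The tetraploid shares rest on few ESRP1 reads, 21 in 4N-1, 5 in 4N-2 and 23 in 4N-3. The sum was 0.305 and 0.0836 reads per M and kb in 2N-1 and 4N-1, 0.285 and 0.0360 in pair 2, and 0.234 and 0.104 in pair 3.

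**Figure D2:**
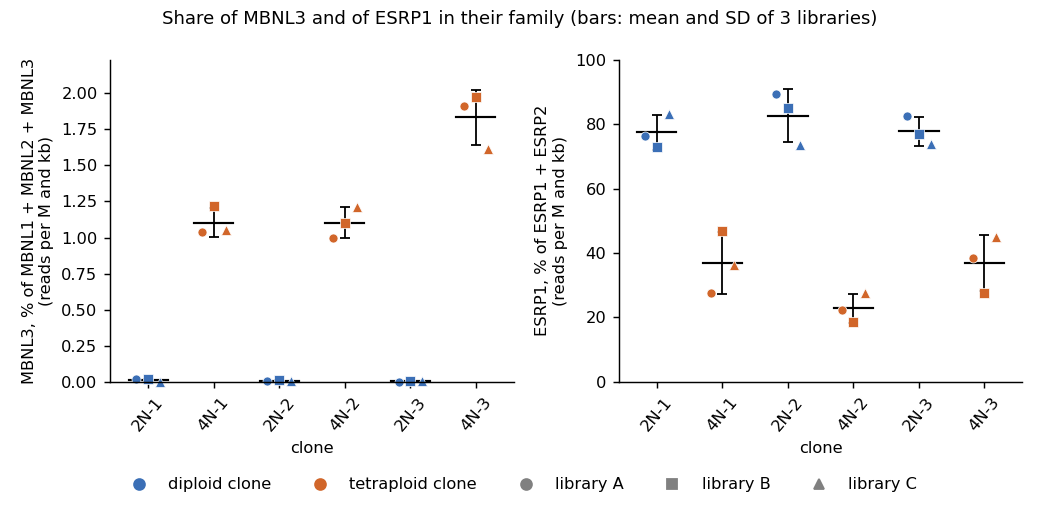
Share of MBNL3 in the summed muscleblind level (left) and of ESRP1 in the summed ESRP level (right), in percent of reads per M and kb of exon, by library and clone; lines and bars are the mean and SD of 3 libraries. MBNL3 reached 1.10% to 1.83% in tetraploid clone means, and ESRP1 went from 77.5% to 82.6% in diploid clones to 22.8% to 36.9% in tetraploid ones.

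RBFOX2 (ENSG00000100320, chr22:35738736-36028425), which binds UGCAUG beside regulated exons, was one of the steadier members. It had 207, 210 and 219 reads per M in 2N-1 against 216, 218 and 219 in 4N-1, and 222, 217 and 210 in 2N-2 against 290, 269 and 250 in 4N-2. In pair 3 it had 149, 225 and 221 against 199, 200 and 220. Clone 4N-2 was the highest and the only one whose libraries stood clear of all others. Its log2 changes within pairs were 0.04, 0.32 and 0.08 (SE 0.12).

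QKI (ENSG00000112531, chr6:163414000-163578596), a STAR-domain protein that also shapes circular RNA, had its lowest clone mean in 4N-2 (89.7 ± 6.32). It had 139, 147 and 142 reads per M in 2N-1 against 132, 131 and 147 in 4N-1, and 126, 120 and 124 in 2N-2 against 95.9, 89.9 and 83.2 in 4N-2. In pair 3 it had 82.3, 138 and 134 against 111, 109 and 117. The log2 changes were -0.06, -0.46 and -0.03 (SE 0.14). Without library A of 2N-3 the last was -0.27.

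CELF1 (ENSG00000149187, chr11:47465933-47565569), the ubiquitous CELF protein, had clone means of 121.7 to 139.8 reads per M, with log2 changes of 0.02, -0.20 and 0.13 (SE 0.08). Its libraries in 4N-2 (121, 121 and 123) lay below those of 2N-2 (141, 139 and 140). PTPMT1 and NDUFS3 overlap CELF1 in the annotation, and PTPMT1 was higher in 4N-2 than in 2N-2 (40.8 against 26.7 reads per M, limma adjusted p = 0.00103). CELF2 (ENSG00000048740, chr10:10798397-11336675), the CELF of brain, heart and lymphocytes, had 0 to 7 reads a library and was too low to test. Its summed reads were 5 and 6 in 2N-1 and 4N-1, 1 and 12 in 2N-2 and 4N-2, and 4 and 2 in 2N-3 and 4N-3. The ratio in pair 2 was 14.5 with a counting interval of 2.15 to 620.

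PTBP1 (ENSG00000011304, chr19:797075-812327) had the highest level per kilobase of exon of the 10 members, with a median of 40.2 reads per M and kb over the libraries. It was followed by MBNL1 (23.4), RBFOX2 (21.8), MBNL2 (13.5), CELF1 (12.9) and QKI (7.18), and at a distance by MBNL3 (0.152), ESRP1 (0.101), ESRP2 (0.0529) and CELF2 (0.00211). PTBP1 had 273, 281 and 315 reads per M in 2N-1 against 199, 203 and 206 in 4N-1, the only clone below all others. It had 257, 255 and 284 in 2N-2 against 302, 284 and 325 in 4N-2, and 237, 259 and 282 in 2N-3 against 326, 323 and 223 in 4N-3. The log2 changes were -0.51, 0.19 and 0.15 (SE 0.12), and the last was 0.32 without library C of 4N-3, the lowest of its clone.

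**Figure D3:**
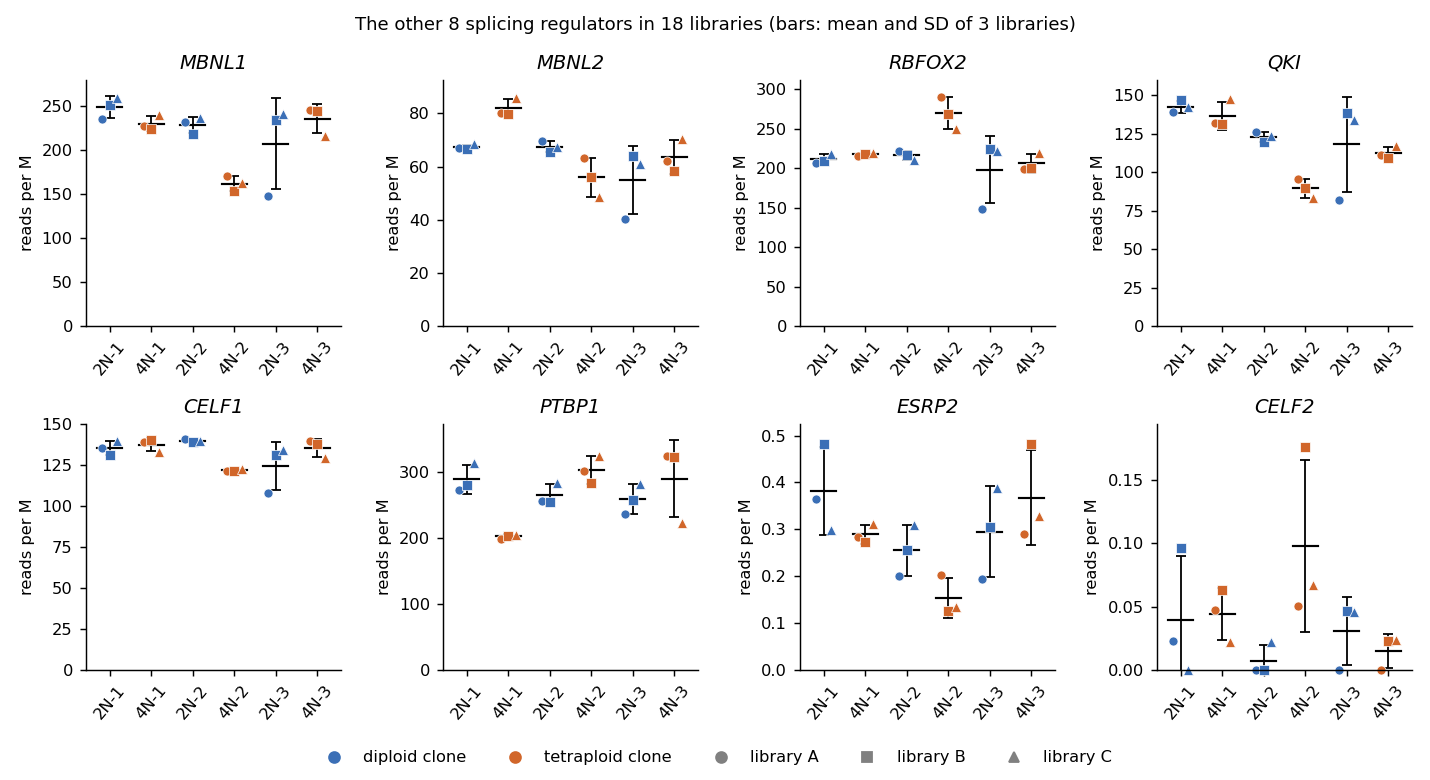
Reads per M of the other 8 members in the 18 libraries, by clone, each panel on its own scale from 0; points are libraries A, B and C, lines the mean and bars the SD of 3. MBNL1, MBNL2 and QKI were low in 4N-2 and in library A of 2N-3, and PTBP1 was lowest in 4N-1 (202.8).

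Across the 9 tested members, an adjusted p below 0.05 in limma was reached in pair 1 by 3 (19.2% of all tested genes did so), in pair 2 by 6 (41.3%) and in pair 3 by 2 (6.83%). With a change of 2-fold or more besides, 2 of 9 remained in each pair, MBNL3 higher and ESRP1 lower, beside 3.22%, 10.2% and 1.63% of all tested genes (1.46%, 5.11% and 0.727% higher, 1.77%, 5.05% and 0.898% lower). The set was built on these values, so nothing is read from the counts. Over all tested genes, 40 (0.171%) were called higher and 24 (0.103%) called lower in all 3 pairs.

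Comparisons between clones of the same ploidy did not enter the choice of genes. Among the diploid clones, 0 of the 8 members other than MBNL3 and CELF2, which had under 10 reads in each diploid library, passed in limma in any of the 3 comparisons, where 2.58%, 2.04% and 3.56% of all genes passed (2N-2 against 2N-1, 2N-3 against 2N-1 and 2N-3 against 2N-2). At an unadjusted p below 0.05 there were 0, 3 (MBNL1, MBNL2 and QKI) and 2 (CELF1 and MBNL2), and limma-voom gave the same counts at both levels. No share of all genes is given at the unadjusted level, so nothing is read from these counts. They also leaned on library A of 2N-3. On leaving it out, the log2 differences from 2N-1 went from -0.29 to -0.06 (MBNL1), -0.32 to -0.11 (MBNL2) and -0.31 to -0.07 (QKI). Those from 2N-2 went from -0.18 to -0.08 (CELF1) and -0.32 to -0.11 (MBNL2). Without library A of 2N-3, QKI passed in 2N-2 against 2N-1 (log2 difference -0.21, adjusted p = 0.0364), and so did 5.87% of all genes, as the estimate of the spread is shared by all libraries.

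Among the tetraploid clones more members passed, and so did more genes at large. In 4N-2 against 4N-1, 8 of 9 members passed (48% of all tested genes), 2 higher (23.6%) and 6 lower (24.4%), and the libraries of all 9 did not overlap (65.8% of all genes). Leaving ESRP1 aside, 7 of 8 passed. PTBP1 was 0.58 higher in 4N-2 (limma adjusted p = 0.000639), and QKI (-0.61, adjusted p = 0.00123), MBNL2 (-0.55, adjusted p = 0.0024) and MBNL1 (-0.51, adjusted p = 0.00424) were lower. RBFOX2 was 0.31 higher (adjusted p = 0.0382), and CELF1, at -0.17, did not pass (adjusted p = 0.0763). RBFOX2 no longer passed without any 1 library of 4N-1, without A or B of 4N-2 (0.0747 to 0.135) and without the minimum of reads (0.0669). The count itself was 5 of 9 without library B or C of 4N-1 or without library B of 4N-2, where 41.9%, 43.3% and 42.9% of all genes passed.

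In 4N-3 against 4N-1, 2 of 9 passed (15.8% of all genes), MBNL3 and PTBP1, the latter 0.50 higher in 4N-3 (limma adjusted p = 0.00894). PTBP1 no longer passed without library A or B of 4N-3 (0.0684 and 0.0678). Without library A of 2N-3 the count was 4 of 9 and the share of all genes 33.7%, with QKI at -0.28 (adjusted p = 0.00132) and MBNL2 at -0.37 (adjusted p = 0.00184). In 4N-3 against 4N-2, 5 of 9 passed (35.8% of all genes), or 4 of 8 leaving ESRP1 aside: MBNL3, ESRP1 and ESRP2 as given above, MBNL1 at 0.54 higher (adjusted p = 0.00385) and RBFOX2 at -0.39 (adjusted p = 0.015). RBFOX2 no longer passed here without library A of 4N-2 (0.0688) or library A of 4N-3 (0.0519).

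**Figure D4:**
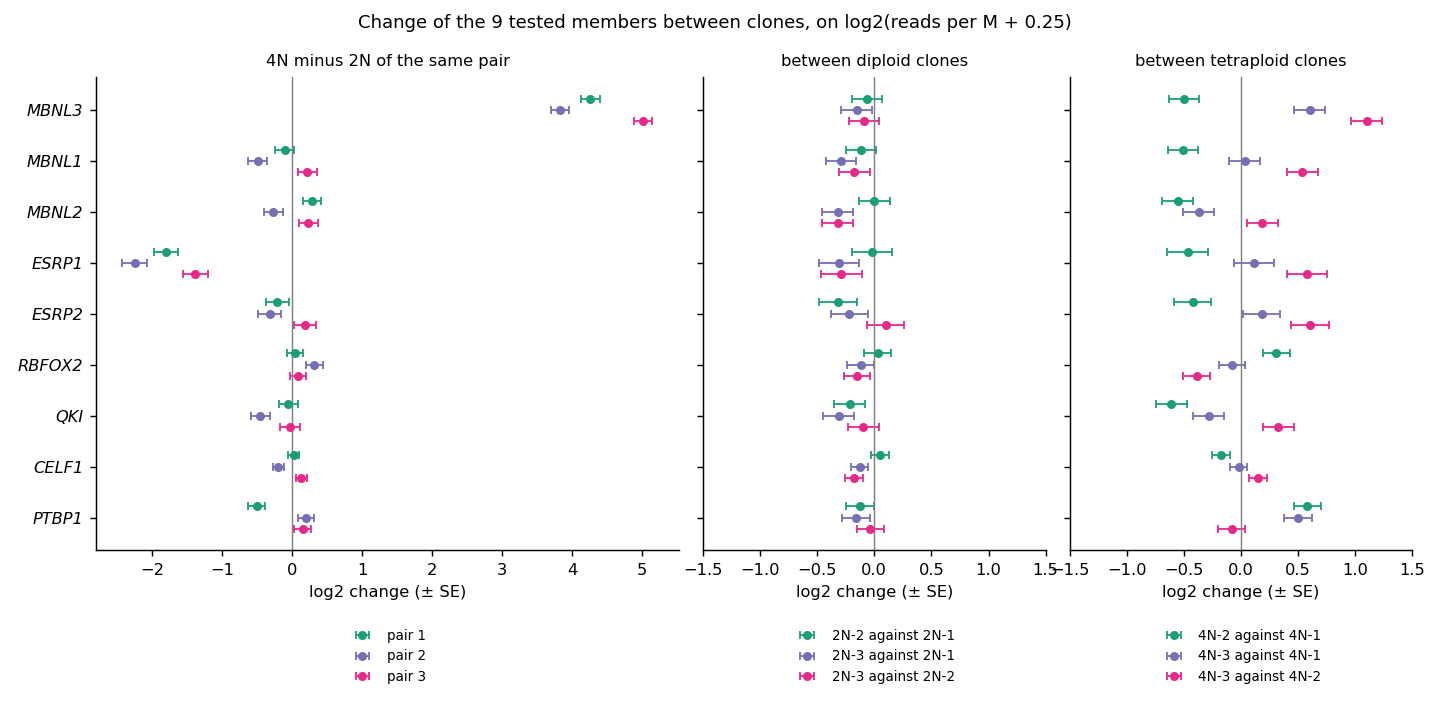
Log2 change of the 9 tested members, with SE, on log2(reads per M + 0.25): within the 3 pairs (left), between diploid clones (middle) and between tetraploid clones (right); the left panel has a wider axis. Apart from MBNL3 (3.82 to 5.01) and ESRP1 (-2.25 to -1.39), no member changed by more than 0.51 within a pair, and diploid clones differed by at most 0.32.

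Whether the change between tetraploid and diploid clone had the same size in the 3 pairs was tested for the other members by a moderated F test over all genes (41.5% of all tested genes passed). PTBP1 passed (span between pairs 0.70 on the log2 scale, adjusted p = 0.00423), as did MBNL1 (0.71, adjusted p = 0.0171) and MBNL2 (0.55, adjusted p = 0.0435). For PTBP1 the change was negative in pair 1 and positive in the other two. For MBNL1 and MBNL2 pair 2 was the low one. MBNL2 no longer passed, at adjusted p of 0.0529 to 0.139, on leaving out any 1 of 13 of the 18 libraries. Nor did it pass with scaling by total reads (0.0771) or by median ratio (0.0642), without the minimum of reads (0.0772) or with the replicate letter as a block (0.0626). ESRP2, RBFOX2, QKI and CELF1 did not pass (adjusted p 0.057 to 0.318). Without library A of 2N-3 the count was 6, with RBFOX2 (0.43, adjusted p = 0.000839), QKI (0.40, adjusted p = 0.00189) and CELF1 (0.23, adjusted p = 0.00774) added, and without library B of 2N-3 it was 5. The shares of all genes were then 55.3% and 46.1%.

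The genes most like MBNL3 over the 18 libraries, by Pearson r of log2(reads per M + 0.25) among 14627 other genes that averaged at least 100 reads, were CCND2 (r = 0.95), TMEFF2 (0.93), CLIC2 (0.92), ZNF426 (0.90) and OR51E2 (0.90). The libraries of a clone share its level, so these points are not independent and no p is given. CCND2, which encodes cyclin D2, was closest in pattern, with 0.0654 and 18.8 reads per M in 2N-1 and 4N-1, 0.0128 and 21.7 in pair 2, and 0.492 and 10.9 in pair 3. Its order among tetraploid clones was not that of MBNL3, with 4N-3 the lowest. TMEFF2, a transmembrane protein with follistatin-like domains, went from 13.8 to 18.9, from 14.8 to 18.5 and from 13.1 to 24.2, so that the likeness is one of order and not of size.

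The genes most like ESRP1 were ZNF568 (r = 0.96), SQLE (0.95), HOXA3 (0.95), CHI3L1 (0.93) and HSPBAP1 (0.92). SQLE, squalene epoxidase of sterol synthesis, was at 137 and 67.4 reads per M in 2N-1 and 4N-1, 132 and 50.6 in pair 2, and 120 and 85.6 in pair 3. HOXA3, a homeobox gene, was at 5.08 and 0.110, 10.3 and 0.0906, and 4.93 and 0.0736. Both were lower in the tetraploid clone of every pair, as was ESRP1. They were picked for likeness to ESRP1 over these same libraries, so the shared direction is no separate result.

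Beyond the 10 members, a list of 105 other splicing regulators was counted, of which 91 were tested. In pair 1, 6 were higher and 35 lower by limma (10.1% and 9.17% of all tested genes), with a median log2 change of -0.18 against 0.02 for all genes. The hnRNP proteins, abundant RNA binders that often block exons, made up most of this: of 34 tested 0 passed higher and 26 lower, median -0.37, and limma-voom gave 27 lower. HNRNPM went from 269 ± 13.1 to 174 ± 5.43 reads per M (-0.63, adjusted p = 0.000294) and HNRNPA1 from 841 ± 39.0 to 619 ± 28.1 (-0.44, adjusted p = 0.00499), both picked after their values were seen. PTBP1, itself an hnRNP, was lower in the same clone, as was TUBB3. SR proteins, which mostly favour exons, had 3 higher and 6 lower of 23. The count of 41 regulators past the test was 20 without library C of 2N-1, 22 without A and 26 without B of 4N-1, and 62 without both libraries that stand apart, where 12.3%, 13%, 13.1% and 40.5% of all genes passed. The hnRNP count was 13, 15 and 19 lower without the first 3 of these libraries and 29 lower without the pair that stands apart.

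In pair 2, 13 regulators were higher and 26 lower (20.1% and 21.2% of all genes), with a median of -0.04. Of these, 2 were called with a 2-fold fall: RBM47, an RNA-binding protein of endoderm and epithelia, from 7.79 ± 0.661 to 3.32 ± 0.449 reads per M (-1.17, limma adjusted p = 1.87e-06), and PTBP2, the neural relative of PTBP1, from 40.0 ± 2.11 to 19.8 ± 0.751 (-1.01, adjusted p = 3.14e-07). The hnRNPs had 5 higher and 7 lower of 34. In pair 3, 1 regulator was higher and 3 lower (3.66% and 3.17%), median -0.01, and 0 of 34 hnRNPs passed in limma or limma-voom, with 1 at an unadjusted p below 0.05 in each. The count of 4 was 16 of 91 without both libraries that stand apart, where 18.6% of all genes passed, and 3 hnRNPs then passed, all higher. CLK1, a kinase that phosphorylates SR proteins and was named after its values were seen, was lower in pair 1 (-0.76, adjusted p = 2.71e-06) and higher in pair 3 (0.40, adjusted p = 0.0036).

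**Figure D5:**
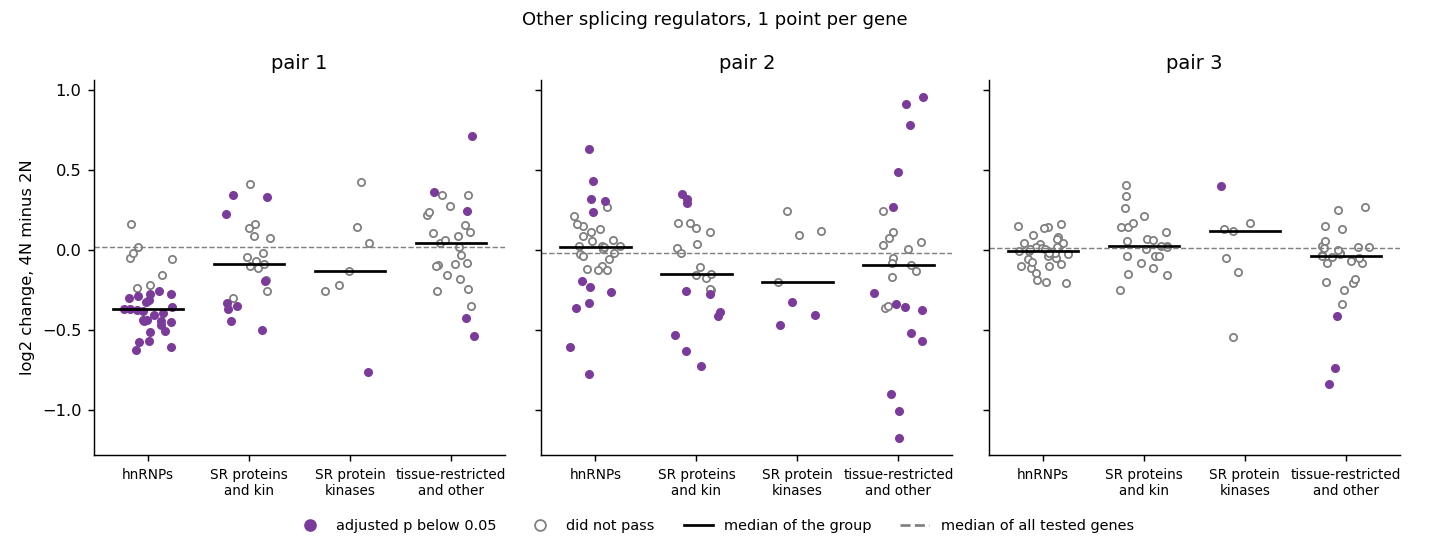
Log2 change, tetraploid minus diploid clone, of 91 other splicing regulators in each pair, by class; filled points passed an adjusted p below 0.05, black lines are class medians and the dashed line the median of all tested genes. The hnRNPs sit low in pair 1 (median -0.37) and near 0 in pairs 2 and 3.

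ESRP1 is a marker of epithelial state, and 26 epithelial genes and repressors of them were counted beside it, 18 of them tested. In pair 1, 2 were higher and 4 lower (10.1% and 9.17% of all tested genes), in pair 2, 6 and 4 (20.1% and 21.2%), and in pair 3, 0 and 3 (3.66% and 3.17%), with medians of -0.04, -0.01 and -0.06. These pool 2 opposed classes. The 12 tested epithelial genes gave 1 higher and 4 lower, 3 and 3, and 0 and 2 in pairs 1 to 3. Their medians were -0.14, -0.11 and -0.08. The 6 repressors gave 1 and 0, 3 and 1, and 0 and 1, with medians of -0.01, 0.51 and 0.08. Of the 20 epithelial genes of the list 12 were tested, SPINT2 and others given below among them. Some were near 0 in both kinds of clone. CDH1, E-cadherin, had clone means of 0.143 to 0.187 reads per M, EPCAM at most 0.123 and GRHL2 at most 0.0967. The repressors ZEB1 (38.8 to 52.9) and ZEB2 (43.5 to 64.4) were present throughout, and neither passed in any pair (limma adjusted p 0.139 to 0.993).

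The called genes of the list, repressors included, numbered 1 higher and 2 lower in pair 1 (1.46% and 1.77% of all tested genes), 3 and 3 in pair 2 (5.11% and 5.05%), and 0 and 2 in pair 3 (0.727% and 0.898%), the last being SPINT2 and ITGB4. SPINT2, an inhibitor of surface serine proteases, fell in pair 1 (12.2 ± 0.594 and 2.92 ± 0.165 reads per M, log2 change -1.98, limma adjusted p = 1.91e-08) and in pair 3 (16.8 ± 4.71 and 3.19 ± 0.228, -2.28, adjusted p = 4.01e-09). It fell by less than 2-fold in pair 2 (-0.57, adjusted p = 0.00298). ITGB4, the hemidesmosome integrin, was lower in pairs 1 and 3 (-1.12 and -1.91) and higher in pair 2 (1.51). SPINT1, a relative of SPINT2, was higher in pair 1 (1.41) and lower in pair 2 (-1.18). In pair 2, LAMB3 (1.60) and the repressor SNAI2 (1.82, from 7.04 to 25.6 reads per M) rose, and SNAI1 fell from 15.6 to 5.45 (-1.49). SNAI2 also rose in pair 1 by less than 2-fold (0.94, adjusted p = 2.3e-05), and in pair 3 it was at -0.24 (adjusted p = 0.242).

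Gene totals of 10 transcripts with isoforms set by these factors were counted last. The deposited table has 1 value per gene, so exon use was not analysed here. Of 7 tested, 1 passed in pair 1 (19.2% of all tested genes), 5 in pair 2 (41.3%) and 1 in pair 3 (6.83%). For ESRP targets, CD44 was higher in pairs 2 and 3 (0.38 and 0.34, limma adjusted p = 0.00139 and 0.0188), ENAH was lower in pair 2 (-1.03, adjusted p = 6.73e-06), CTNND1 passed in none and FGFR2 was too low to test. Of muscleblind targets, LDB3 was higher in pair 1 (2.30 to 6.51 reads per M, adjusted p = 2.71e-05) and lower in pair 2 (2.72 to 0.277, adjusted p = 6.39e-09), and INSR and BIN1 were lower in pair 2 (-0.77 and -0.65). MBNL1-AS1, an antisense transcript within MBNL1, was higher in pair 1 and lower in pair 2: 4.60 to 7.36 reads per M in pair 1 (0.65, adjusted p = 0.00131), 4.96 to 1.53 in pair 2 (-1.55, adjusted p = 2.25e-08) and 4.42 to 5.39 in pair 3 (0.26, adjusted p = 0.223).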

How the data were processed

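The unit of the deposited table, computed by the authors for each gene in each library, is RPKM. Demultiplexing with CASAVA 1.8.2, alignment with TopHat2 to hg19 and use of edgeR are per the submitters' processing notes; how each was set, the annotation release and the use of strand are not given in the sources used here. RPKM steps gave whole reads (100% of values above 0 within 0.01 reads). The implied gene length matched the genomic span, introns included, within 0.5% for 21556 of 24727 genes, so reads per M of the implied library size (36.1 to 54.8 M) were used in place of RPKM. Genes that reached 10 reads in at least 3 libraries (23381) were fitted on log2(reads per M + 0.25) with limma 3.58.1 in R 4.3.3 with a trend in the spread, 1 mean per clone, two-sided, Benjamini-Hochberg adjusted over all tested genes. "Passed" is an adjusted p below 0.05 and "called" adds a 2-fold change. Symbols and positions are GENCODE v29 (GRCh38), promoters RefSeq. Exon length is the union of annotated exons.

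The members and lists were chosen with earlier results of these data known. Named genes were the members; up to 5 called list genes per direction and pair without overlap and with 1 read per M or more; the 5 most alike to MBNL3 and to ESRP1; and genes overlapping a member. Lists were other splicing regulators, epithelial genes and repressors, genes with isoforms set by ESRPs or muscleblinds, markers of the retinal pigment epithelium and of other cell types. Alternatives were another scale, pseudocount, filter, model, scaling, set of libraries and a replicate block.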

Additional observations from a re-analysis of the deposited data

Results flagged for a closer look

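For 3 members the change between tetraploid and diploid clone differed between the 3 pairs by a direct test over all genes in limma. Of all tested genes 41.5% passed the same test, so nothing particular to the members is read from the count. PTBP1 (adjusted p = 0.00423) was at -0.51 in pair 1, 0.19 in pair 2 and 0.15 in pair 3. MBNL1 (adjusted p = 0.0171) was at -0.11, -0.50 and 0.21. MBNL2 (adjusted p = 0.0435) was at 0.28, -0.27 and 0.23. For MBNL1 and MBNL2 the low libraries included A of 2N-3, a library that stands apart, and for PTBP1 the low library C of 4N-3. Without both libraries the spans were 0.77 for PTBP1, 0.54 for MBNL1 and 0.55 for MBNL2, with adjusted p of 2.56e-07, 1.25e-05 and 0.000132. In that setting 62.5% of all genes passed. MBNL2 no longer passed, at 0.0529 to 0.139, without any 1 of 13 of the 18 libraries, with both other scalings, without the minimum of reads and with the replicate block.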

How the results depend on the processing

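No alternative reversed the direction of a called value. On log2(RPKM + 0.5) with a minimum of 1 RPKM in 3 libraries, which changed scale and filter together (9704 genes tested) and where only MBNL1, CELF1 and PTBP1 of the members could be tested, the genes called were 141, 470 and 32 in pairs 1 to 3, 17 (2N-2 against 2N-1), 12 (2N-3 against 2N-1), 13 (2N-3 against 2N-2), 761 (4N-2 against 4N-1), 135 (4N-3 against 4N-1), 374 (4N-3 against 4N-2) and 1023 for differing pairs, against 754, 2376, 380, 221, 148, 264, 3056, 540, 1922 and 4476. In the same order a pseudocount of 1 gave 449, 1400, 191, 115, 62, 114, 1935, 347, 1079 and 2861. limma-voom gave 1164 and 589 in pairs 1 and 3, 850 in 4N-3 against 4N-1 and 2953 in 4N-3 against 4N-2. Fitting only the clones compared gave 253 in pair 3 and 84 in 2N-3 against 2N-1, and leaving out both libraries that stand apart (2N-3 A, 4N-3 C) gave 895 in 4N-3 against 4N-1.

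Shares of all genes past the test stand in brackets here. Members past it in 2N-2 against 2N-1 were 1 without both those libraries (10.5%) and 1 with only the clones compared (9.58%). In 4N-2 against 4N-1 they were 2 on RPKM (47.7%) and 5 without the filter (28.2%). In 4N-3 against 4N-1 they were 1 on RPKM (18.4%), 4 without both libraries (44.2%) and 4 with only the clones compared (24.2%). In 4N-3 against 4N-2 they were 1 on RPKM (32.2%) and 3 with a minimum of 50 reads (41.3%), which ESRP1 and ESRP2 miss. Members whose pairs differ were 6 without both libraries (62.5%). Other splicing regulators past the test in pair 1 were 62 without both libraries (40.5%) and 63 with only the clones compared (43.3%). In pair 3 they were 2 on RPKM (3.4%), 16 without both libraries (18.6%) and 0 with only the clones compared (1.33%). Epithelial genes on RPKM were 1, 3 and 1 in pairs 1 to 3 (20.9%, 37.5% and 3.4%). Except where fewer genes or samples entered by construction, the cause was not tested.

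With each library left out in turn, members past the test ranged from 0 to 1 (2N-2 against 2N-1), 5 to 9 (4N-2 against 4N-1), 1 to 4 (4N-3 against 4N-1) and 2 to 6 (pairs differ). The shares of all genes ranged, in this order, from 1.67% to 5.87%, 41.7% to 60.6%, 7.45% to 33.7% and 35.3% to 55.3%. Genes called in 4N-3 against 4N-1 ranged from 391 to 892, the highest without C of 4N-3. Regulators in pair 1 ranged from 20 to 56 (12.3% to 34.6% of all genes). Epithelial genes in pair 3 ranged from 2 to 5 (4.02% to 12.4%). MBNL2 no longer passed the test of differing pairs in 13 of 18 of these fits.

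The labels do not say what libraries of the same replicate letter share, and a common batch is not known. Deviations of same-letter libraries correlated at 0.06, 0.03 and 0.12 in pair 1, 0.04, 0.16 and 0.26 in pair 2 and 0.05, -0.17 and -0.10 in pair 3. With the replicate block, ESRP1 in 4N-2 against 4N-1 (adjusted p = 0.0518) and MBNL2 between pairs (0.0626) no longer passed. Every other member that had passed still did. In pair 3 library B of one clone correlated best with C of the other (0.21), so not every library was closest to its own letter. The block left 753, 2373 and 378 genes called in pairs 1 to 3. A pseudocount of 1 brought the log2 changes in pairs 1 to 3 to 2.61, 2.20 and 3.20 for MBNL3 and to -0.90, -1.04 and -0.67 for ESRP1, under 2-fold in pairs 1 and 3, and one of 0.1 to 5.27, 4.87 and 6.19 and to -2.32, -3.13 and -1.80. At 0 to 3 reads a library, differences in MBNL3 between diploid clones could not be resolved.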
